A study of Mus musculus with 6 samples.

Results

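Kupffer cells are the resident macrophages of the liver, and 9 genes that mark them or other resident macrophages were followed here: Timd4, Clec4f, Folr2, Vsig4, Cd5l, Marco, Adgre1, Id3 and C1qa. The members were chosen by name, as rows of the deposited gene table whose symbol is one of these markers, and all 9 were found among its 16426 genes. The study sequenced liver RNA of male C57/BL mice in 6 samples. In the labels, 3 samples come from mice that received 20% carbon tetrachloride (CCl4) for 10 weeks, a solvent that liver enzymes turn into toxic radicals and that produces fibrosis, and 3 from normal mice that received saline. The values reported are those of the authors' own comparison of 2 sets of 3 libraries, headed ly_A and ly_B.

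Neither heading matches the label of any sample, so neither set was called CCl4 or normal, and the differences below say nothing of what CCl4 does. The columns of single libraries entered no calculation, so no value per library, no spread between libraries and no sequencing depth stands behind the numbers here. The error of each difference enters only through the authors' adjusted p-value, and a gene was called when that value was under 0.05. A positive log2 fold change means higher in ly_A.

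Kupffer cells settle in the liver before birth and renew themselves inside the sinusoids, the capillaries of the liver. They clear bacteria, dying cells and old red blood cells from portal blood. Signals from endothelial cells, stellate cells and hepatocytes hold them in their identity, and when resident cells are lost, monocytes from the blood can enter the same niche and take on many of their genes. Among the markers, Clec4f is the one most restricted to Kupffer cells in the mouse and Timd4 marks long-lived resident macrophages. Adgre1 is shared with many other macrophages, and Id3 is also made by endothelial and other cells. In whole liver RNA, fewer cells of a type and less RNA per cell cannot be told apart.

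Of the 9 markers, 6 were higher in ly_A (66.7%) and 1 was higher in ly_B (11.1%) per the authors' deposited table. Among the 14114 genes tested per the authors' deposited table, 18.1% were higher in ly_A and 17.7% were higher in ly_B. Timd4, Clec4f, Folr2, Vsig4, C1qa and Cd5l were the 6, Id3 was the exception, and Adgre1 and Marco did not pass. The median log2 fold change of the 9 markers per the authors' deposited table was 1.48, and that of all tested genes was 0.07. A log2 value above 0 was found for 8 of the 9 markers per the authors' deposited table, and for 7488 of the 14114 tested genes. The markers and the other lists were chosen with earlier results of these data known, so their counts are not independent of these data. The shares of all tested genes given here are the background for each list below, at an adjusted p under 0.05. No share of all tested genes at an unadjusted p was counted, so counts at that rule have no background here.

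**Figure D1:**
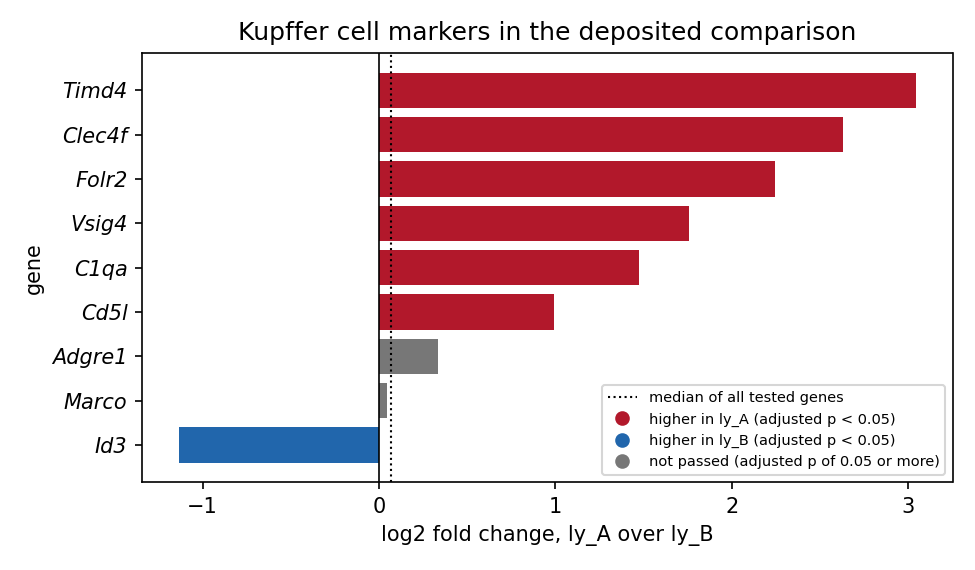
Log2 fold change of each Kupffer cell marker, ly_A over ly_B, as deposited by the authors (x axis, log2 scale), with 1 bar per gene and the dotted line at the median of all tested genes, 0.07. Colour shows the call at an adjusted p under 0.05. Bars of the 6 genes called higher in ly_A run from 0.99 (Cd5l) to 3.04 (Timd4). Adgre1 and Marco, which did not pass, are grey, and Id3 reaches to the left at -1.13.

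The start regions of some markers are shown because these genes differed together in 1 comparison while Id3 differed the other way. Windows of 250 bases before to 50 bases after the start site were taken from RefSeq on build GRCm38.p6, which is not the build named for the deposited data, and 7 of the 9 markers had one. Folr2 had 2 windows, which made 8 in all. Capitals mark GAGGAA and GGAAGTG, which hold the purine-rich core bound by the macrophage factor PU.1 (Spi1) and by other ETS factors, and TGCTGA, the outer part of sites bound by MAF proteins. Both strands were searched, and a match on the other strand appears as its reverse complement. GAGGAA and GGAAGTG can overlap, since both hold GGAA. The windows are those of Timd4 on chromosome 11 (chr11:46810549-46810848, plus strand), Vsig4 on X (chrX:96293389-96293688, minus strand), Clec4f on chromosome 6 (chr6:83656067-83656366, minus strand) and Id3 on chromosome 4 (chr4:136143572-136143871, plus strand).
Timd4: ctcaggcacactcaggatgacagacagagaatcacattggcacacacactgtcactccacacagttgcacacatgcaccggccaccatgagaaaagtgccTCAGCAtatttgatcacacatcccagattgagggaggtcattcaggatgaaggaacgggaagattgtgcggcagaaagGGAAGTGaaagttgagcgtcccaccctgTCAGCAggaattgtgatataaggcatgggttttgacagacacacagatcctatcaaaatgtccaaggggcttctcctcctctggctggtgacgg
Vsig4: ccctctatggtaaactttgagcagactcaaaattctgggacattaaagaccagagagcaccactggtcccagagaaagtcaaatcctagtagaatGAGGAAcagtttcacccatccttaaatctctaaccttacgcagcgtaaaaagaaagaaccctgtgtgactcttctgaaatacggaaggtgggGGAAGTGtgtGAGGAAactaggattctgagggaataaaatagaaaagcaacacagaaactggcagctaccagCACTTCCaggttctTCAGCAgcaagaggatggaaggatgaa
Clec4f: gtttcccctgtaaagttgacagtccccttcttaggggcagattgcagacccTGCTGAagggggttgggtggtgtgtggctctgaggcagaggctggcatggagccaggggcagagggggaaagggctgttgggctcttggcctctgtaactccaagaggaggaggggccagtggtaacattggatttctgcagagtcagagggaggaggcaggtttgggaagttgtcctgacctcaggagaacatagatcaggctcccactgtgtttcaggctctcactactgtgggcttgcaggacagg
Id3: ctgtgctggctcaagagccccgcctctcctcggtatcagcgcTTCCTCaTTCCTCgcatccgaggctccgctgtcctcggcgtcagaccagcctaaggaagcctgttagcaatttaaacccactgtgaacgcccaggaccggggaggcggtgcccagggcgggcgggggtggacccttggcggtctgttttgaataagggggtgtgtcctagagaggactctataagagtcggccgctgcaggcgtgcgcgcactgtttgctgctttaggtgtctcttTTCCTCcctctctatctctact

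TGCTGA was found in 6 of the 8 windows, those of 5 markers, Timd4, Clec4f, Vsig4, Folr2 (both windows) and Cd5l. Of 32851 mouse start windows of the same length, 19.5% hold it. It was not in the windows of Id3 or Marco. The markers without a window were C1qa, called higher in ly_A, and Adgre1, which did not pass. Whether a motif goes with the direction of a difference was not tested. GGAAGTG was found in 3 of the 8 windows, 1 each of Timd4, Vsig4 and Folr2, against 11.0% of all windows. GAGGAA was found in 4 of the 8 windows, those of Vsig4, Cd5l, Marco and Id3, against 28.3% of all windows. The Id3 window held 3 matches and that of Vsig4 held 2. The Clec4f window held 1 TGCTGA and neither of the other motifs. These matches describe the letters of the windows, and whether any factor binds there was not measured.

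The largest differences among the 9 markers belonged to Timd4, Clec4f and Folr2, which encode surface receptors. Timd4 encodes TIM-4, which binds phosphatidylserine on dying cells. It was 8.23-fold higher in ly_A per the authors' deposited table (log2 3.04, adjusted p = 2.60e-09) and ranked 323 of 14114 tested genes from the side of ly_A. Clec4f encodes a C-type lectin of Kupffer cells. It was 6.20-fold higher in ly_A per the authors' deposited table (log2 2.63, adjusted p = 5.77e-13), and no other marker had a smaller adjusted p. Folr2, the folate receptor beta of tissue macrophages, was 4.74-fold higher in ly_A per the authors' deposited table (log2 2.24, adjusted p = 2.44e-06). GENCODE M21 places an antisense gene, Gm10602, and a pseudogene, Gm45319, on the opposite strand within Folr2, and the sources used here do not say whether reads were counted by strand. None of the other 8 markers overlapped another gene in that annotation.

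Vsig4 and C1qa, whose products bind complement or start its classical pathway, were also higher in ly_A. Vsig4 encodes CRIg, a receptor for fragments of complement C3 that lets Kupffer cells catch bacteria from the blood. It was 3.38-fold higher in ly_A per the authors' deposited table (log2 1.76, adjusted p = 6.98e-06). C1qa encodes the A chain of C1q, the recognition protein of the classical pathway. It was 2.78-fold higher in ly_A per the authors' deposited table (log2 1.48, adjusted p = 4.79e-05). Both other C1q chains, named here after their values were seen, were also called higher in ly_A per the authors' deposited table, C1qb at log2 1.12 (adjusted p = 0.00404) and C1qc at log2 1.21 (adjusted p = 0.00238). All 3 chains thus had log2 values between 1.12 and 1.48 towards ly_A per the authors' deposited table.

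Cd5l had the smallest difference of the 7 called markers. It encodes AIM, a blood protein made by tissue macrophages. It was 1.99-fold higher in ly_A per the authors' deposited table (log2 0.99, adjusted p = 0.0248). It lost its call when an adjusted p under 0.01 or a difference of at least 2-fold was required. Timd4, Clec4f, Folr2, Vsig4 and C1qa kept theirs under both rules, which left 5 of 9 markers higher in ly_A. Per the authors' deposited table, an adjusted p under 0.01 was reached by 12.3% of tested genes towards ly_A and 12.7% towards ly_B. At least 2-fold and past 0.05 were 10.9% of tested genes towards ly_A and 7.85% towards ly_B. With p adjusted over all 16426 rows, where Cd5l kept its call, 15.0% of genes were called towards ly_A and 14.6% towards ly_B.

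Marco and Adgre1 did not pass the test per the authors' deposited table. Marco encodes a scavenger receptor that binds bacteria and particles. Its log2 fold change was 0.05 per the authors' deposited table (adjusted p = 0.936), close to the median of all tested genes. Adgre1 encodes an adhesion receptor whose antigen is widely used to stain mouse macrophages. Its log2 fold change was 0.33 per the authors' deposited table (adjusted p = 0.503). Neither p shows that ly_A and ly_B had the same level of these genes. Whether the differences of Timd4 or Clec4f exceeded those of Marco or Adgre1 was not tested.

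Id3 was the only one of the 9 markers called higher in ly_B. It encodes an inhibitor of DNA binding, which blocks basic helix-loop-helix factors and is needed for Kupffer cell development in mice. It was 2.20-fold higher in ly_B per the authors' deposited table (log2 -1.13, adjusted p = 0.000123). Its nearest relatives and other genes that answer bone morphogenetic proteins (BMPs) were counted beside it. Of 8 such genes tested, 0 were higher in ly_A and 3 in ly_B (37.5%) per the authors' deposited table. The shares of all tested genes were 18.1% and 17.7%. At an unadjusted p under 0.05 the counts of these 8 genes were 1 and 3, and their median log2 fold change was -0.27. Id1 stood at log2 -1.18 (adjusted p = 0.00121) and Smad7, an inhibitory SMAD, at -1.04 (adjusted p = 2.29e-05) per the authors' deposited table. Id2, named after its values were seen, was the third gene called, at log2 -0.97 (adjusted p = 0.00208) per the authors' deposited table. The other 5 did not pass, and 2 are named after their values were seen. Id4 stood at log2 -0.35 (adjusted p = 0.567) per the authors' deposited table. Atoh8, the only 1 of the 8 with a value above 0, stood at log2 0.38 (adjusted p = 0.101).

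**Figure D2:**
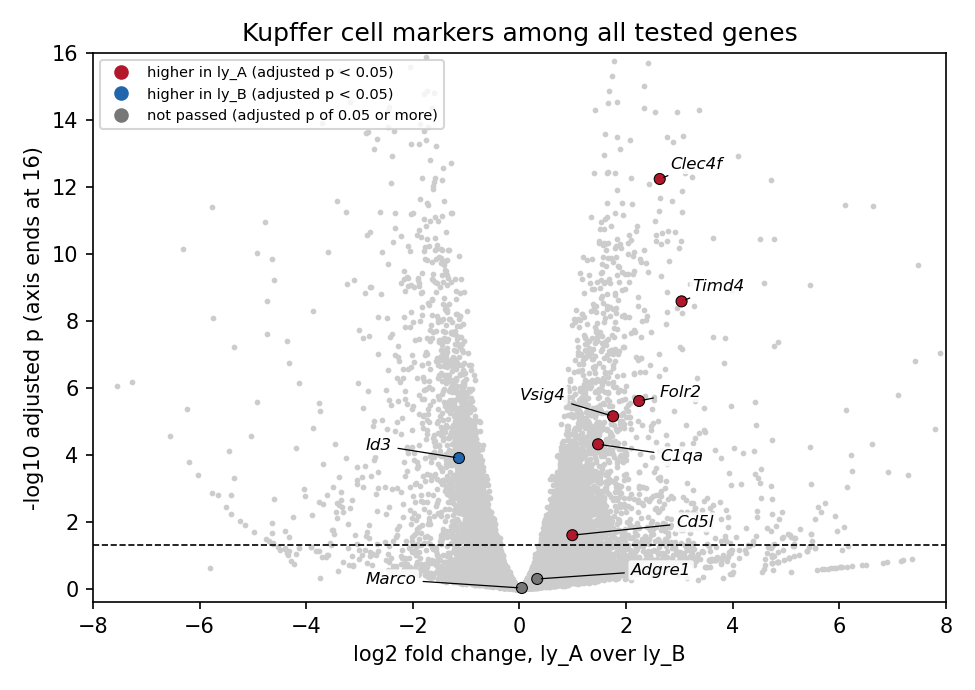
Log2 fold change, ly_A over ly_B (x axis), against the -log10 of the adjusted p (y axis) for all tested genes per the authors' deposited table (grey points) and the 9 Kupffer cell markers (coloured points with names). The dashed line is the threshold of 0.05, 110 genes lie outside the axes, and Clec4f stands highest of the markers with an adjusted p of 5.77e-13.

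Other genes of resident macrophages were mostly higher in ly_A as well. Of 14 listed genes that were not members, 13 were higher in ly_A and 0 in ly_B per the authors' deposited table, with 0 in ly_B at an unadjusted p under 0.05 too, and their median log2 fold change was 1.35. Fcna, which encodes the lectin ficolin A, stood at log2 2.09 (adjusted p = 2.32e-08) per the authors' deposited table. Cfp, which encodes the complement protein properdin, stood at log2 1.98 (adjusted p = 7.48e-09) per the authors' deposited table. The gene that did not pass, named after its values were seen, was Slc40a1, the iron exporter ferroportin, at log2 -0.30 (adjusted p = 0.287) per the authors' deposited table. Of these 14 genes, 7 stand in another list below as well.

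Transcription factors of Kupffer cells differed in both directions. Of 10 tested, 5 were higher in ly_A (50%) and 2 in ly_B (20%) per the authors' deposited table. The shares of all tested genes were 18.1% and 17.7%, and the median log2 fold change of this list was 0.58. Spic, a factor of macrophages that recycle heme, was 3.53-fold higher in ly_A per the authors' deposited table (log2 1.82, adjusted p = 0.000889). Nr1h3, which encodes the nuclear receptor LXR alpha, a factor of Kupffer cell identity, was named after its values were seen and stood at log2 0.57 (adjusted p = 0.0163) per the authors' deposited table. Runx1 and Smad4, also named after their values were seen, were the 2 higher in ly_B. They stood at log2 -1.14 (adjusted p = 0.0295) and -0.89 (adjusted p = 0.00606) per the authors' deposited table. Spi1, which encodes PU.1, did not pass at log2 0.85 (adjusted p = 0.0709) per the authors' deposited table.

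Genes for the signals that keep Kupffer cells in place were called in both directions. Of 13 niche genes tested, 4 were higher in ly_A (30.8%) and 1 in ly_B (7.69%) per the authors' deposited table, against 18.1% and 17.7% of all tested genes, with a median log2 fold change of 0.32. Eng, the endothelial co-receptor endoglin, stood at log2 1.21 (adjusted p = 7.59e-09) and Dll4, a Notch ligand of endothelium, at log2 1.10 (adjusted p = 0.00994) per the authors' deposited table. Notch2, a Notch receptor named after its values were seen, was the gene higher in ly_B, at log2 -0.83 (adjusted p = 0.000120) per the authors' deposited table. Notch1, another Notch receptor named in the same way, was higher in ly_A, at log2 0.89 (adjusted p = 1.38e-05) per the authors' deposited table. The macrophage growth factors Csf1 and Il34, named after their values were seen, did not pass per the authors' deposited table, at log2 0.08 (adjusted p = 0.845) and log2 0.32 (adjusted p = 0.520).

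Complement genes and uptake receptors outside the 9 markers were called in both directions. Of 12 classical complement genes, 5 were higher in ly_A (41.7%) and 2 in ly_B (16.7%) per the authors' deposited table. The shares of all tested genes were 18.1% and 17.7%, and the median log2 fold change of this list was 0.05. C2, a protease of the pathway, stood at log2 1.57 (adjusted p = 1.27e-10) and C5ar1, the receptor for C5a, at log2 -1.74 (adjusted p = 0.00254) per the authors' deposited table. Of 15 tested scavenger and dying-cell uptake genes, 5 were higher in ly_A (33.3%) and 2 in ly_B (13.3%) per the authors' deposited table. Their median log2 fold change was 0.07, and that of all tested genes was 0.07 too. Cd163, the hemoglobin scavenger receptor of macrophages, was 3.65-fold higher in ly_A per the authors' deposited table (log2 1.87, adjusted p = 2.40e-06). Stab2, a hyaluronan receptor of sinusoidal endothelium, was 3.42-fold higher in ly_A per the authors' deposited table (log2 1.77, adjusted p = 2.18e-17).

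Genes that myeloid cells share were called in both directions, more of them towards ly_A. Of 14 pan-myeloid genes, 5 were higher in ly_A (35.7%) and 2 in ly_B (14.3%) per the authors' deposited table, with a median log2 fold change of 0.55. The 5, named after their values were seen, were Ptprc, Tyrobp, Csf1r, Cd52 and Aif1, with log2 values between 0.86 and 1.28 per the authors' deposited table. Cd14, a co-receptor for bacterial lipopolysaccharide, stood at log2 -2.37 (adjusted p = 4.35e-11) and Itgam, the integrin chain CD11b, at log2 -2.14 (adjusted p = 0.000411) per the authors' deposited table, both higher in ly_B. Of 13 tested genes of recruited macrophages, which come from blood monocytes, 0 were higher in ly_A and 6 in ly_B (46.2%) per the authors' deposited table. The shares of all tested genes were 18.1% and 17.7%. At an unadjusted p under 0.05, where the share of all tested genes was not counted, the counts of this list were 0 and 7. Its median log2 fold change was -0.92. Mmp12, the macrophage elastase, stood at log2 -6.31 (adjusted p = 7.30e-11) and Gpnmb, a membrane glycoprotein of lipid-laden macrophages, at log2 -4.93 (adjusted p = 1.24e-36) per the authors' deposited table. These are fitted values, and how many reads lie behind the lower side was not examined. The other 7 recruited macrophage genes did not pass, and some are named here after their values were seen. Ccr2 stood at log2 -0.92 (adjusted p = 0.0710) and Cx3cr1 at -0.78 (adjusted p = 0.210) per the authors' deposited table. Ly6c2, at log2 1.31 (adjusted p = 0.142), and Fabp5, at 0.47 (adjusted p = 0.341), were the 2 with a value above 0. The difference between this list and the Kupffer cell markers was not tested.

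**Figure D3:**
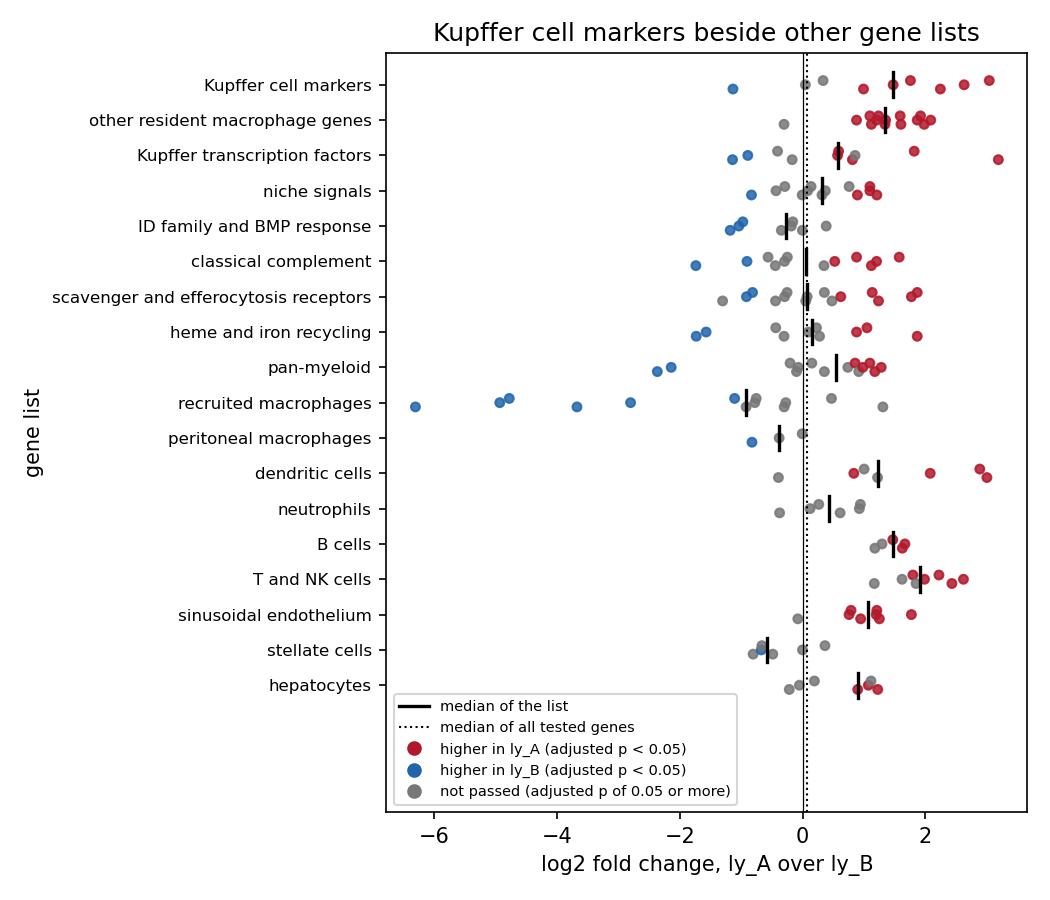
Log2 fold change, ly_A over ly_B (x axis), of every tested gene in the Kupffer cell marker list and in 17 other lists (rows), with 1 point per gene, a black bar at each list's median and a dotted line at the median of all tested genes. The Kupffer cell markers have a median of 1.48 and the recruited macrophage genes one of -0.92.

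In the lists of sinusoidal endothelium, dendritic cells, T and NK cells, and B cells, the called genes were all higher in ly_A, and their part in the result was not tested. Of 8 sinusoidal endothelial genes, 7 were higher in ly_A, 0 in ly_B and 1 did not pass per the authors' deposited table, with a median log2 fold change of 1.07; Kdr, a receptor for vascular endothelial growth factor, stood at 1.25 (adjusted p = 5.25e-06). Of 7 dendritic cell genes, 4 were higher in ly_A, 0 in ly_B and 3 did not pass per the authors' deposited table, with the chemokine receptor gene Xcr1 8.02-fold higher in ly_A (adjusted p = 0.0123) and the lectin gene Cd209a 7.40-fold (adjusted p = 0.00192). Of 8 genes of T and NK cells, 5 were higher in ly_A, 0 in ly_B and 3 did not pass per the authors' deposited table, with the protease gene Gzma at log2 2.62 (adjusted p = 0.00469) and the co-receptor gene Cd4 at 2.43 (adjusted p = 0.00233). Of 5 B cell genes, 3 were higher in ly_A, 0 in ly_B and 2 did not pass per the authors' deposited table, with Cd79a, a chain of the B cell receptor, at log2 1.62 (adjusted p = 0.0133). In these 4 lists and in that of hepatocytes, 0 genes were higher in ly_B at an unadjusted p under 0.05 as well, and no other tool was run.

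Hepatocyte, stellate cell, neutrophil and peritoneal macrophage genes were counted too. Of 7 hepatocyte genes, 3 were higher in ly_A and 0 in ly_B per the authors' deposited table, with the apolipoprotein gene Apoa1 at log2 1.22 (adjusted p = 0.000290) and transthyretin, Ttr, at 1.07 (adjusted p = 6.96e-05). Of 6 tested stellate cell genes, 0 were higher in ly_A and 1 in ly_B (16.7%) per the authors' deposited table. The share of all tested genes higher in ly_B was 17.7%. At an unadjusted p under 0.05 the stellate cell counts were 1 and 4, a rule for which the share of all tested genes was not counted. Pdgfrb, a growth factor receptor, stood at log2 -0.67 (adjusted p = 0.00842) and Lrat, an enzyme of vitamin A storage, at -0.81 (adjusted p = 0.0652) per the authors' deposited table. Of 6 tested neutrophil genes, 0 were called in either direction per the authors' deposited table, and 0 at an unadjusted p under 0.05; S100a8 and S100a9 stood at log2 0.92 (adjusted p = 0.254) and 0.94 (adjusted p = 0.160). Of 3 tested genes of peritoneal macrophages, which can also carry Timd4 and Adgre1, 0 were higher in ly_A and 1 in ly_B per the authors' deposited table, with Prg4 at log2 -0.82 (adjusted p = 0.00183) and Ltbp1 at -0.38 (adjusted p = 0.396). Levels of these markers in single libraries were not used, so which of them are at 0 was not examined.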

How the data were processed

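Per the labels' protocols, liver RNA was isolated with Trizol and sequenced from NEBNext libraries. DESeq2 (no version) and the genome build mm9 are listed in the submitters' processing notes. Which aligner, counter and annotation were used is not given in the sources used. The log2 fold changes, p-values and adjusted p-values are the authors' deposited values for ly_A against ly_B, following the order in the table's name. On first inspection, the opening rows, read by eye for the sign only, paired a negative log2 value with larger single-library numbers in ly_B. Another 18 columns, those of single libraries among them, entered no calculation. The names of the single-library columns match no sample label. Depth and intervals were therefore not examined. The design also has a didymin group, and none of the samples listed here is labelled with it. Since ly_A and ly_B match no label, which groups of the design they hold is not known. The labels do not say that replicates are separate animals, so the p-values measure only the spread between these samples, which may be technical.

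An adjusted p of 1 stood in 2312 of 16426 rows, which were treated as not tested. A Benjamini-Hochberg adjustment over the other 14114 rows gave the deposited values to a relative difference of 9.47e-13. Calls were counted for the 9 markers and for 17 other lists (156 genes, 155 in the table), with no test of a list. Members and lists were chosen with earlier results of these data known. From each other list, the 2 called genes with the largest log2 size are named, or those with the smallest p where fewer passed. A few genes taken by this rule are not reported here. Start windows came from RefSeq (GRCm38.p6), and overlaps of genes from GENCODE M21. Calls were also counted at a stricter adjusted p of 0.01, with at least a 2-fold difference, and with p adjusted over all rows. The adjustment was tested on simulated data. Python 3.11.15, pandas 2.3.3 and numpy 2.4.6 were used.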

Additional observations from a re-analysis of the deposited data

How the results depend on the processing

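Over the 9 markers and 3 alternatives, 25 of 27 results kept their side of the threshold and 2 lost a call, both of Cd5l. All 3 alternatives only tightened the rule on the same p-values. Marco and Adgre1, which had not passed, therefore could not gain a call, and their results were fixed in advance. The count of markers higher in ly_A ran from 5 to 6, and that of markers higher in ly_B was 1 throughout. Of all tested genes, 5053 were called in the authors' deposited table, 2650 with a difference of at least 2-fold as well. Centred on the median of all tested genes, the median log2 fold change of the markers was 1.41. An adjustment over all 16426 rows left the 9 calls as they were. Of the 155 genes of the other lists that were found, 76 were called in either direction, beside the 5053 of 14114 tested genes. The same alternatives were added for these lists after seeing the data. They left 55 at an adjusted p under 0.01 (3526 of all tested genes) and 53 with at least 2-fold (2650). With p adjusted over all 16426 rows, 75 were left (4864 of all rows). No paired analysis was possible because the columns of single libraries carry no sample label, so no replicate numbers could be paired. A fit of ly_A against ly_B on read counts, other normalizations, a low count filter and fits that leave out a library were not run, since columns that match no labelled sample were kept out by choice. How far 1 library decides any value, and what depth limits, was not examined.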

Other observations

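Handling of heme and iron is another task of Kupffer cells. Of 10 such genes, 3 were higher in ly_A (30%) and 2 in ly_B (20%) per the authors' deposited table. The shares of all tested genes were 18.1% and 17.7%, and the median log2 fold change of this list was 0.16. Cd163 was again among those higher in ly_A. Tfrc, the transferrin receptor, was 3.33-fold higher in ly_B per the authors' deposited table (log2 -1.73, adjusted p = 1.38e-15). Named after their values were seen, Slc48a1, a heme transporter, was 2.97-fold higher in ly_B (log2 -1.57, adjusted p = 1.59e-07) and Blvrb, a biliverdin reductase, was 2.07-fold higher in ly_A (log2 1.05, adjusted p = 1.04e-08) per the authors' deposited table. Hmox1, the heme oxygenase, did not pass at log2 0.28 (adjusted p = 0.328) per the authors' deposited table.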
